A study of Mus musculus with 6 samples.

Results

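The genes described here are 10 transcripts that the tumour suppressor p53 is known to switch on: Cdkn1a, Mdm2, Ccng1, Trp53inp1, Phlda3, Sesn1, Sesn2, Zmat3, Plk2 and Plk3. They were chosen by name, and a gene was given a value where the array annotation lists its symbol alone for a row. Of the 10, 9 had such a row, 1 row each, among 19935 genes measured. Cdkn1a lies on a row shared with the gene model 4930567H12Rik, so it has no value by this rule and its shared row is given separately. Across the 9, Trp53inp1 and Ccng1 were clearly higher in Dicer KO cells, Sesn2 was higher by less, Plk3 was lower, and Mdm2, Phlda3, Sesn1, Zmat3 and Plk2 did not pass the test.

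The cells were T cells of mouse lymph nodes, labelled resting and sorted as CD4+CD62L-, whose total RNA was amplified and hybridised to Affymetrix MoGene 1.0 ST arrays. The 3 Dicer WT samples came from Dicer lox/lox animals negative for CD4Cre. The 3 Dicer KO samples came from Dicer lox/lox animals carrying CD4Cre, a recombinase driven by the Cd4 promoter, which deletes the floxed gene in T cells as they develop in the thymus. Both genotypes thus carry the floxed alleles, no treatment was given, and the series' design text calls the 3 samples of each genotype biological replicates. The sources used here give no age, sex or strain. Dicer trims precursor hairpins to mature microRNAs, and the design sets cells that kept the gene against cells that should have lost it.

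p53 is a transcription factor that is kept scarce by the ubiquitin ligase Mdm2 and accumulates after DNA damage, oncogene activity or other stress. It then raises genes that stop the cell cycle, repair DNA, restrain growth or start cell death, and also Mdm2 itself, which closes a feedback loop. In T cells it limits the expansion of damaged or stressed thymocytes and lymphocytes. Many of its target genes also respond to other factors, so a change in a single one is not a reading of p53.

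Each value is a deposited log value, read here as log2 because the base is not stated, and each row was centred by the authors so that its median over 6 arrays is 0. A value above 0 is thus above the middle of the 6 arrays, and the pair of arrays nearest the middle have equal values of opposite sign. Differences between genotypes can be read from such values, and expression levels cannot. The stored numbers keep a trace of the level before centring, because their binary step is coarser above 8 than below. By that trace 17.8% of all array rows fell in a higher level class, including 90.3% of 216 rows of ribosomal protein genes and 3.09% of 1035 rows of olfactory receptor genes. Ccng1, Trp53inp1 and Sesn1 were in the higher class and the other 6 measured genes were not. A row below 8 can enter the class by accident, and a row with arrays on both sides of 8 can miss it. The class of a single gene is thus uncertain.

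p53 binds DNA as a tetramer at its response element, a pair of copies of a 10-base consensus. The windows from 250 bases before to 50 bases after the transcript start, from RefSeq (GRCm38.p6), held 8 of the 10 genes in 10 windows. Trp53inp1 and Zmat3 had no entry. The windows were searched for the p53 response element, named here rather than spelled because its consensus uses degenerate letters. Both copies had to be adjacent, 20 bases in all with at most 1 mismatch, so copies set apart by other bases could not be found. The consensus is its own reverse complement, so both strands were covered. A match was found in 2 of the 10 windows, those of Ccng1 and of the upstream start of Cdkn1a, and in 29 of 32851 windows (0.0883%) over all genes. Further windows with a single perfect 10-base copy were those of Mdm2 and of the downstream start of Sesn1, a motif held by 8.36% of all windows. A match is a description of these letters and not a measured binding site.

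The bases upstream of the start are shown for Ccng1 (chr11:40755287-40755536, minus strand) and for the upstream start of Cdkn1a (chr17:29090729-29090978, plus strand), because they hold the matches. Plk3 (chr4:117133964-117134213, minus strand) and Sesn2 (chr4:132510457-132510706, minus strand) are shown as genes that passed the test and hold none. Capitals mark the match to the response element, which lies at -195 to -176 relative to the start in Ccng1 and at -51 to -32 in Cdkn1a. All run 5′ to 3′ along the gene.
Ccng1: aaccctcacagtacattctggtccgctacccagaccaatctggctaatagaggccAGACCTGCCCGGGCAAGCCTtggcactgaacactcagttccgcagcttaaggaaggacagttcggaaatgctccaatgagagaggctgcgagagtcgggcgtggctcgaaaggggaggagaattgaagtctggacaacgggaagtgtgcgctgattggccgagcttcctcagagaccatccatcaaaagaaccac
Cdkn1a: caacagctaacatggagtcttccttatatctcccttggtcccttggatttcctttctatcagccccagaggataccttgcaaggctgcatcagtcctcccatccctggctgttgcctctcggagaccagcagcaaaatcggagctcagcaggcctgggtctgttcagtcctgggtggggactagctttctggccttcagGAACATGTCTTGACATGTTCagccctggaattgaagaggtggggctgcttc
Plk3: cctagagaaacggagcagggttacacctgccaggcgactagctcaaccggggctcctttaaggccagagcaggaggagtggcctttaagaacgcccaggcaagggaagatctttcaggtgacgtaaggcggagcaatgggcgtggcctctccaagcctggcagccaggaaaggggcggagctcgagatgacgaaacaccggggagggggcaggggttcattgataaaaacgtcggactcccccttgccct
Sesn2: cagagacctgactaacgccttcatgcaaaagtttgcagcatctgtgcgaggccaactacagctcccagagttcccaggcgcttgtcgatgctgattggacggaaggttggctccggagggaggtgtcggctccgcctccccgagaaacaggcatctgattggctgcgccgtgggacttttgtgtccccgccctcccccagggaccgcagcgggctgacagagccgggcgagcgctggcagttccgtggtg

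Trp53inp1 encodes a stress-induced nuclear protein that acts with p53 and also takes part in autophagy. In replicate order, it read -0.53, -0.36 and -0.83 in Dicer WT and 0.54, 0.42 and 0.36 in Dicer KO. All 3 KO arrays lay above all 3 WT arrays, and the lowest value was that of Dicer WT 3. Dicer KO minus Dicer WT, the log2 difference was 1.01 ± 0.12 (SE, 3 arrays a genotype; by limma, adjusted p = 0.00371), or 2.02-fold. It was the 93rd largest rise among 19935 genes.

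Ccng1 encodes cyclin G1, which brings the phosphatase PP2A to Mdm2. Its values were -0.28, -0.43 and -0.42 in WT and 0.33, 0.34 and 0.28 in KO. The groups did not overlap, and the KO arrays lay close together (SD 0.03, against 0.08 in WT). Its difference was 0.70 ± 0.06 (SE, 3 arrays a genotype; by limma, adjusted p = 0.00128), or 1.62-fold, and ranked 280th from the highest. The promoter window of Ccng1 holds the match to the response element shown above, at -195 to -176.

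Sesn2, a sestrin that senses leucine and restrains the growth kinase complex mTORC1, differed by less. It read -0.07, -0.14 and -0.07 in WT and 0.25, 0.20 and 0.07 in KO. The groups did not overlap, but Dicer KO 3 lay nearer to Dicer WT 1 than to Dicer KO 1. The difference was 0.27 ± 0.06 (SE, 3 arrays a genotype; by limma, adjusted p = 0.0431), or 1.20-fold. The call was lost without any 1 array other than Dicer KO 3 (adjusted p 0.0729 to 0.153 in those 5 fits), whereas the calls of Trp53inp1, Ccng1 and Plk3 held in all 6.

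Plk3 went the other way. It encodes a polo-like kinase of the stress response and is also an early-response gene of stimulated cells. It read 0.46, 0.48 and 0.21 in WT and -0.37, -0.21 and -0.25 in KO, so every KO array lay below every WT array. The difference was -0.66 ± 0.09 (SE, 3 arrays a genotype; by limma, adjusted p = 0.0054), which placed the higher level in WT at 1.58-fold. It ranked 74th among the largest falls of 19935 genes.

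**Figure D1:**
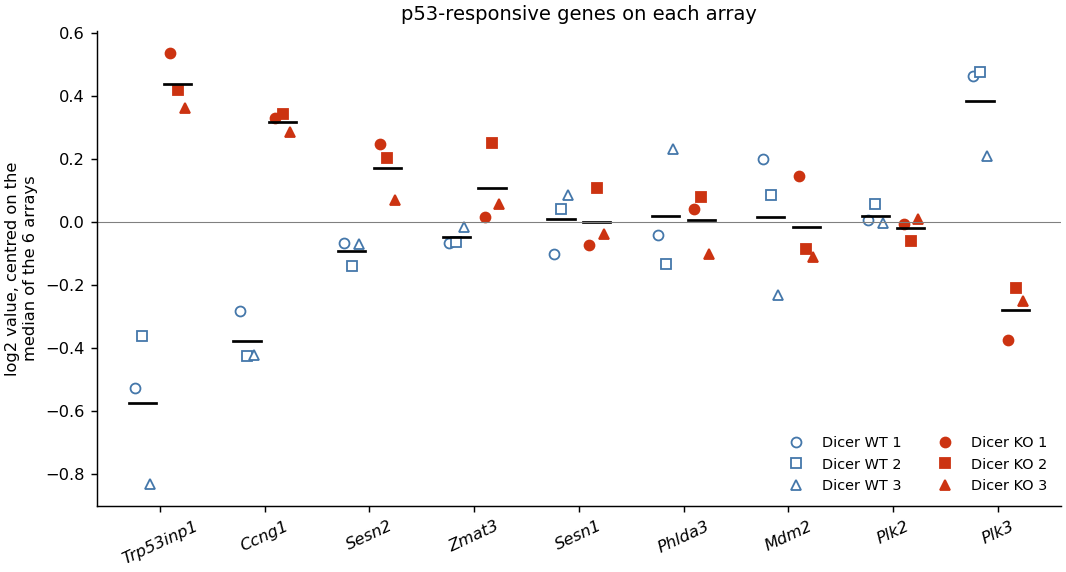
Centred log2 value (vertical axis) of the 9 measured p53-responsive genes (horizontal axis) on each array, with open blue symbols for Dicer WT, filled red symbols for Dicer KO, 1 symbol shape per replicate number and black bars for the group means. The genotypes are widely separated for Trp53inp1, Ccng1 and Plk3, and they overlap for Sesn1, Phlda3, Mdm2 and Plk2.

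The other 5 measured genes did not pass the test. Mdm2, the ligase that marks p53 for degradation and is one of its most responsive targets, read 0.20, 0.09 and -0.23 in WT and 0.14, -0.09 and -0.11 in KO. The groups overlapped throughout, with Dicer WT 3 lowest, and the difference was -0.03 ± 0.12 (SE, 3 arrays a genotype; by limma, adjusted p = 0.928). The 95% interval of the difference ran from -0.32 to 0.25.

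Phlda3, whose product competes with the kinase AKT for membrane lipids, read -0.04, -0.13 and 0.23 in WT and 0.04, 0.08 and -0.10 in KO. Dicer WT 3 was the highest array and the groups overlapped (difference -0.01, interval -0.25 to 0.23). Sesn1, the sestrin first described as a p53 target, read -0.10, 0.04 and 0.09 in WT and -0.07, 0.11 and -0.04 in KO, which overlap likewise (difference -0.0090, interval -0.18 to 0.16). The sign of the differences of Mdm2, Phlda3 and Sesn1 turned when some single arrays were left out, and that of Phlda3 and Sesn1 also with quantile normalization or array weights, so no direction is given for them.

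Zmat3 encodes a zinc-finger protein that binds RNA. It read -0.07, -0.06 and -0.02 in WT and 0.02, 0.25 and 0.06 in KO. The arrays did not overlap, yet only Dicer KO 2 stood well apart, and the difference of 0.16 ± 0.07 did not pass (SE, 3 arrays a genotype; by limma, adjusted p = 0.261). Plk2, the polo-like kinase nearest to Plk3 in its stress response, read 0.0046, 0.06 and -0.0046 in WT and -0.0068, -0.06 and 0.0075 in KO. These values lay closer together than those of any other gene in the set, and the difference was -0.04 (interval -0.15 to 0.07). Over the 5 genes that did not pass, no interval reached below -0.32 or above 0.32.

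Cdkn1a encodes p21, the inhibitor of cyclin-dependent kinases through which p53 stops the cell cycle. The row it shares with 4930567H12Rik read 0.0063, -0.15 and 0.05 in WT and 0.0094, -0.08 and -0.0063 in KO. The groups overlapped, and in a fit that added rows with several symbols the difference was 0.0060 ± 0.06 (SE, 3 arrays a genotype; by limma, adjusted p = 0.977; interval -0.15 to 0.16). The row cannot tell its 2 genes apart. Of the pair of p53-responsive genes with a match to the response element in the windows searched, Ccng1 thus rose and the row that holds Cdkn1a did not pass. Over all 29 genes with such a match, 12 had a value, with a median difference of 0.02. Of the 12, Ccng1 and Bank1 rose and 0 fell, beside 5.94% higher and 2.79% lower over all genes. The search was chosen after the values were seen, so this count tests nothing. Bank1, named after its value was seen, is a B cell gene and is among the B cell markers described below.

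In count, 3 of the 9 genes rose and 1 fell, at a limma adjusted p under 0.05 over all 19935 genes. The background is 8.73% of all genes called in either direction, 5.94% higher and 2.79% lower. For 5 of the 9 every array of one genotype lay beyond every array of the other, against 26.2% of all genes, and 4 had an unadjusted p under 0.05, against 21.5%. The median difference of the 9 was -0.0090, against -0.0108 over all genes, with 4 differences positive and 5 negative, from -0.66 to 1.01. Two-sided exact permutation of 3 against 3 samples cannot give a p below 0.1, so single genes rest on the fit across all genes. Genes of the higher level class were called higher more often (19.5% of 3508, against 3.04% of the others), and Trp53inp1 and Ccng1 belong to it.

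**Figure D2:**
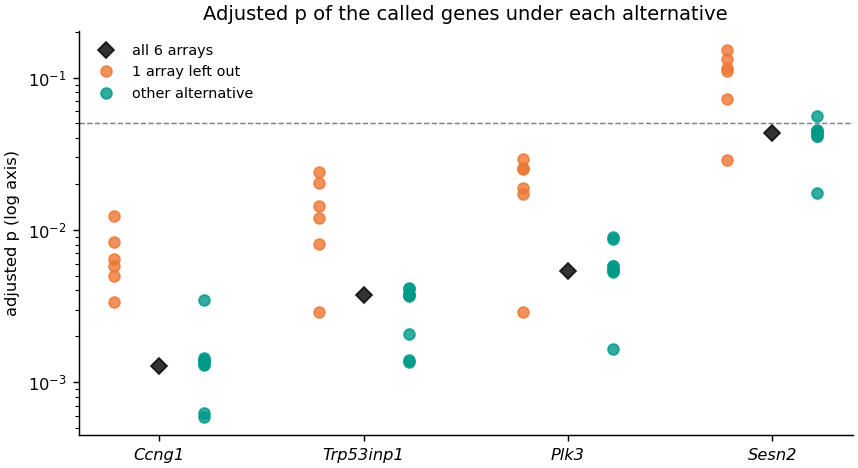
Adjusted p (vertical log axis) of the 4 genes past the threshold, for the fit with all 6 arrays (black diamond), the 6 fits with 1 array left out (orange) and the other alternatives (green). The dashed line is 0.05. All points of Ccng1, Trp53inp1 and Plk3 lie below it, and 5 of the 6 orange points and 1 green point of Sesn2 lie above it.

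Several of these genes have close relatives, which were compared to see whether a whole family moved. Of 14 measured relatives, 3 rose (21.4%, against 5.94% of all genes) and 1 fell (7.14%, against 2.79%). Among the sestrins, Sesn3, which answers to FoxO factors, read -0.22, -0.13 and -0.30 in WT and 0.26, 0.37 and 0.13 in KO, without overlap. Its difference of 0.47 ± 0.08 (SE, 3 arrays a genotype; by limma, adjusted p = 0.0115) stands beside 0.27 for Sesn2 and -0.0090 for Sesn1. The call of Sesn3 was lost without Dicer WT 1 (adjusted p = 0.0506).

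Trp53inp2, which like Trp53inp1 takes part in autophagy, read -0.15, -0.17 and -0.26 in WT and 0.15, 0.20 and 0.18 in KO, again without overlap. Its difference was 0.37 ± 0.05 (SE, 3 arrays a genotype; by limma, adjusted p = 0.00716), and the call held with any 1 array left out. Both genes of this pair thus rose, Trp53inp1 by 1.01 and Trp53inp2 by 0.37.

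Ccng2, the relative of Ccng1, differed by 0.25 ± 0.08 and did not pass (SE, 3 arrays a genotype; by limma, adjusted p = 0.122), with a KO 1 value of 0.02 beside 0.30 and 0.26 on the other KO arrays. Among polo-like kinases Plk3 alone passed. Plk1, which drives mitosis, read 0.30 and 0.74 on Dicer KO 2 and 3 but -0.04 on Dicer KO 1 (difference 0.37, adjusted p = 0.3), while Plk4 (-0.08) and Plk5 (-0.05) lay near 0. The intervals were -0.05 to 0.78 for Plk1 and -0.86 to -0.46 for Plk3. Differences between these genes were not tested.

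Cdkn1b encodes p27, a relative of p21. It rose by 0.41 ± 0.10 (SE, 3 arrays a genotype; by limma, adjusted p = 0.0461), but that call held only without Dicer WT 3 among the fits that left out 1 array (0.0584 to 0.164 in the other 5). Cdkn1c (-0.08), Phlda1 (-0.10) and Phlda2 (0.02) did not pass. Of the Zmat relatives, Zmat2, a spliceosome protein, fell by 0.29 (SE 0.05; limma adjusted p = 0.0204), a call that held only without Dicer WT 3 or Dicer KO 1 (0.0577 to 0.0904 in the other 4 fits). Zmat1, Zmat4 and Zmat5 lay between -0.09 and -0.03. Mdm4, the partner of Mdm2 that blocks p53 activity, read 0.08, 0.12 and -0.20 in WT and 0.21, -0.08 and -0.18 in KO, with a difference of -0.01 ± 0.12 whose sign turned when some single arrays were left out. On Mdm2 and Mdm4 alike, Dicer WT 3 was the lowest array.

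**Figure D3:**
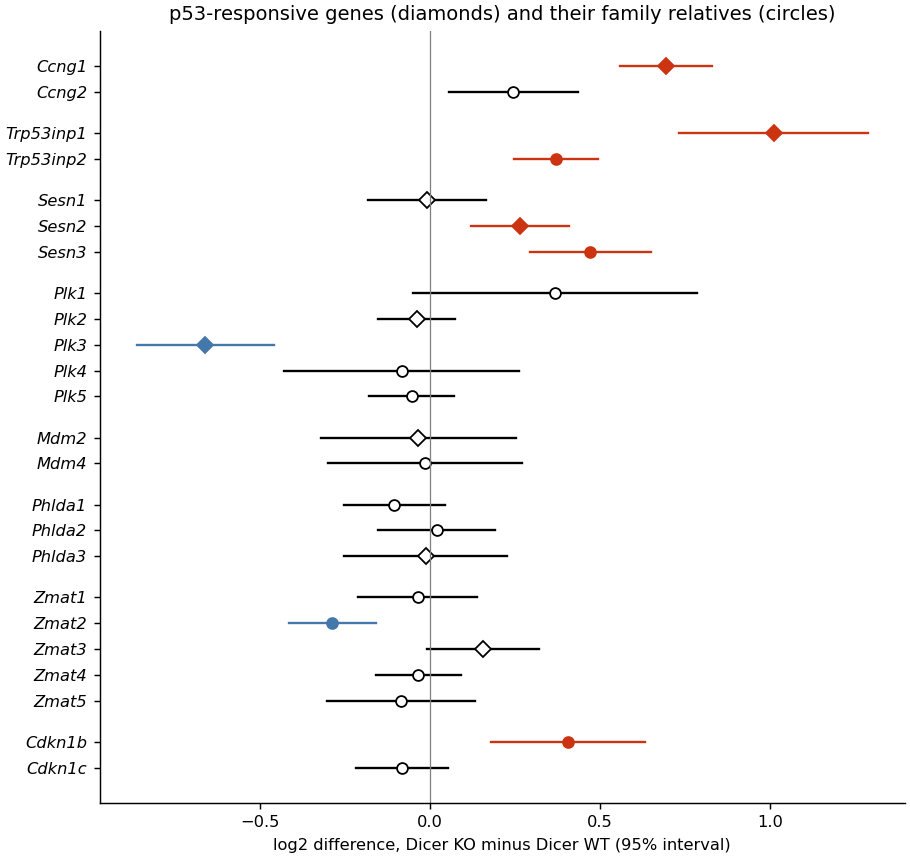
Log2 difference, KO minus WT (horizontal axis), with its 95% interval for the p53-responsive genes (diamonds) and family relatives (circles), grouped by family. Filled red marks are called higher, filled blue marks called lower and open marks not called. Within the sestrin, polo-like kinase and Zmat families, called and uncalled genes stand side by side.

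The wider p53 pathway was described through 69 further gene symbols listed by role, of which 62 had a value. The list held Cop1 also under its older name, Rfwd2. Trp53 itself was on the list but had no row of its own, so no value is given for it. Of the 62, 9 rose and 0 fell, or 14.5% higher against 5.94% of all genes, and the median difference was 0.05. An unadjusted p under 0.05 was reached by 27 of the 62, in either direction, against 21.5% of all genes. The count of 0 that fell became 1 without Dicer KO 1, without Dicer KO 3, with quantile normalization or with each row by itself, and 2 with array weights. The calls of 6 of the 9 held with any 1 array left out.

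Of 18 regulators of p53, 4 rose (22.2%, against 5.94% of all genes), with a median difference of 0.21. The higher level class held 8 of the 18, among them Usp7, Ep300 and Pml, and in that class 19.5% of genes rose and the median difference was 0.10. Usp7, the deubiquitinase that stabilises Mdm2 and p53, rose by 0.50 ± 0.07 (SE, 3 arrays a genotype; by limma, adjusted p = 0.00696), with WT arrays at -0.17, -0.23 and -0.36 and KO arrays at 0.35, 0.17 and 0.24. Sirt1, which removes acetyl groups from p53, rose by 0.42 ± 0.06 (adjusted p = 0.00755). Ep300, which adds them, rose by 0.41 ± 0.07 (adjusted p = 0.0126) and was not called without Dicer WT 1 (0.0586) or Dicer KO 2 (0.0626). So a transcript of each opposing role was higher, and the activity of the enzymes was not measured. Pml, the scaffold of nuclear bodies and also an interferon-inducible gene, rose by 0.43 ± 0.10 (adjusted p = 0.0433), a call that held only without Dicer WT 3 (0.0926 to 0.139 in the other 5 fits). The DNA damage kinases did not pass: Atm differed by 0.33, Atr by -0.39, Chek1 by 0.29 and Chek2 by 0.34.

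Of 13 target genes that promote cell death, 3 rose (23.1%, against 5.94% of all genes). The death receptor gene Fas read -0.23, -0.32 and -0.47 in WT and 0.23, 0.51 and 0.24 in KO, a difference of 0.67 ± 0.10 (SE, 3 arrays a genotype; by limma, adjusted p = 0.00773). Trp53i11 rose by 0.59 ± 0.09 (adjusted p = 0.0111). Apaf1, the core of the apoptosome, rose by 0.34 ± 0.07 (adjusted p = 0.0234), which held only without Dicer WT 1 (0.0524 to 0.0796 in the other 5 fits). The median of the 13 was -0.0059. Bbc3 (Puma), the killer protein that p53 induces in lymphocytes, differed by 0.04, and Pmaip1 (Noxa) by 0.21 without passing.

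Of 15 targets in cell cycle arrest and repair, Btg2 alone rose (6.67%, close to the 5.94% of all genes). Btg2 restrains proliferation and marks quiescent T cells. It read -0.26, -0.42 and -0.45 in WT and 0.33, 0.26 and 0.35 in KO, and its difference of 0.69 ± 0.06 (SE, 3 arrays a genotype; by limma, adjusted p = 0.00182) is close in size to the 0.70 of Ccng1. Gadd45a (-0.32), Ddb2 (0.03) and Xpc (0.09) did not pass. Of 16 targets in metabolism and signalling, Tap1 alone rose (6.25%, close to the 5.94% of all genes). Its difference was 0.82 ± 0.08 (SE, 3 arrays a genotype; by limma, adjusted p = 0.00243). Tap1 carries peptides to MHC class I for presentation and is induced by interferon as well. Ddit4, an inhibitor of mTORC1, did not pass, with KO arrays at -0.19, 0.19 and 1.26.

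**Figure D4:**
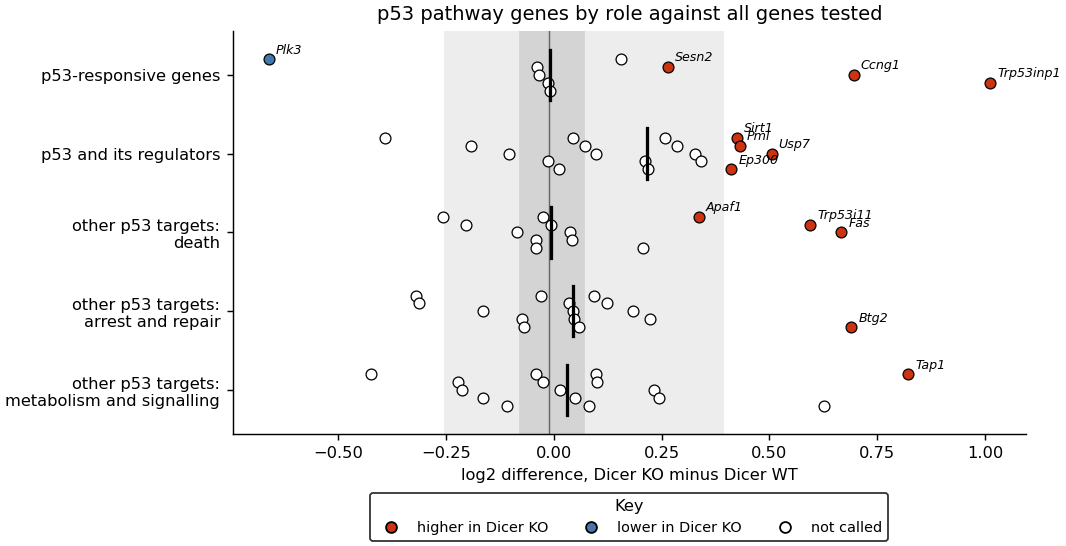
Log2 difference, KO minus WT (horizontal axis), of each measured gene, by role, with red circles called higher, blue circles called lower, white circles not called and black bars at the list medians. Shading spans the 5th to 95th and the 25th to 75th percentiles of all 19935 genes (-0.25 to 0.39 and -0.08 to 0.07). Mdm2, Phlda3, Sesn1 and Plk2 lie within the narrow band, Zmat3 and Sesn2 within the wide band alone, and Trp53inp1, Ccng1 and Plk3 far outside both.

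The row of Dicer1 read 0.12, 0.02 and -0.10 in WT and 0.21, -0.02 and -0.09 in KO, and without the position of its probes it does not check the genotypes. All 7 measured T cell genes, Cd4 among them, were in the higher level class. So were 1 of 2 CD8 T cell genes (Cd8b1) and 1 of 9 B cell genes, against 0 of 10 myeloid and 0 of 5 NK cell genes. Of the 7 T cell genes, Cd4 was called higher by 0.67 (by limma, adjusted p = 0.00328) and Cd5 lower, at -0.44 (adjusted p = 0.00704). That is 14.3% in each direction, beside 5.94% higher and 2.79% lower over all genes. In the higher level class 19.5% were higher and 4.28% lower. Of the 7 differences, 3 were positive and 4 negative. For 9 B cell genes the array medians were -0.56, 0.0084 and -0.27 in WT and 0.06, 0.05 and 0.08 in KO, with 9 of 9 differences positive, against 9016 of 19935 over all genes, and Bank1 alone called. Of 10 myeloid genes Lyz2 and Mpeg1 rose (20%, beside 5.94% of all genes), but 5 differences were positive and 5 negative, with a median of 0.0072. None of 5 NK cell or 2 CD8 T cell genes passed. The median of 15 proliferation genes was -0.15, -0.02 and -0.12 in WT and 0.0048, 0.17 and 0.53 in KO, highest on Dicer KO 3. Of their differences 13 were positive and 2 negative, with a median of 0.35. The genotypes did not overlap for 7 of the 15, against 26.2% of all genes. Pcna alone was called (0.37, by limma, adjusted p = 0.0334), or 6.67% of the 15, beside 5.94% of all genes called higher. The values of Trp53inp1, Ccng1 and Sesn2 were lowest among the KO arrays on Dicer KO 3. Among the 5 other p53 targets that rose, Tap1 was also lowest there, but Btg2 and Apaf1 were highest there. Fas was lowest on Dicer KO 1 and Trp53i11 on Dicer KO 2. Of 4 genes of naive cells, Ccr7 rose by 0.64 (adjusted p = 0.00247), while Lef1 (0.31), Klf2 (0.15) and S1pr1 (0.45) did not pass, and neither did the memory marker Cd44 (0.28). The part of these lists in the results was not tested, and in a sorted bulk sample a different mix of cells and a different amount of transcript per cell cannot be told apart.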

How the data were processed

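The authors deposited log values, taken as log2, for 28815 probe sets on 6 arrays. MAS5 is named without role or version by the submitters' processing notes. The log base and the normalization between arrays are not stated. Every row was found to be centred on the median of its arrays. Rows took their gene from GEO's platform annotation: 21780 rows had 1 symbol, 1605 had several and 5430 had none. Of the 21780, 21689 matched RefSeq (GRCm38.p6) by gene ID. The rows of a gene were averaged, giving 19935 genes. Centring removed the levels, so no filter on low values was applied.

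The genotypes, 3 arrays each, were compared with lmFit and eBayes of limma 3.58.1 (R 4.3.3). A gene was called at a p under 0.05 after Benjamini-Hochberg adjustment across the 19935 genes. Each error is the SE of the moderated fit and each interval is its 95% interval. The script was tested on simulated data. With 3 arrays a genotype, the number of arrays limits the precision. The p53-responsive genes, the further lists and the tests were chosen with earlier results of these data known, so no test over a list is given. The promoter search was chosen after the values were seen. Named genes are all p53-responsive genes, their relatives, Mdm4 and up to 5 called genes per list. Other genes named beside these were chosen after their values were seen. Alternatives left out each array, added a replicate block, changed the scaling, variance prior, array weights or use of rows, or kept the higher level class alone. A row was placed in that class where all differences between its arrays were whole multiples of the coarser binary step, within 0.1 of a step.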

Additional observations from a re-analysis of the deposited data

How the results depend on the processing

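The number of p53-responsive genes called was 3 to 4 with 1 array left out, and that of the 62 other pathway genes 6 to 9. Over all genes the count ran from 729 to 1597, at 849 when Dicer WT 1 was dropped, 1050 when Dicer WT 2 was and 729 when Dicer KO 2 was. Between 1 and 4 relatives were called, 1 when Dicer WT 1 was dropped and 2 when Dicer WT 2 or either of Dicer KO 2 and Dicer KO 3 was. Restricted to the higher level class, where fewer genes were tested, 2 p53-responsive genes, 1 relative and 1067 of 3508 genes were called. With the replicate block 3 p53-responsive genes, 4 relatives, 11 other pathway genes and 2063 genes over all were called, and Sesn2 was not (adjusted p = 0.0564). Samples of the same number deviated together with correlations of 0.274, -0.076 and 0.3, and Dicer WT 2 correlated best with Dicer KO 1, so the numbers were not taken to pair the samples. The differences that changed sign were all of uncalled genes. With 1 array left out they ran from -0.16 to 0.0565 for Mdm2, -0.13 to 0.0667 for Mdm4, -0.0891 to 0.0935 for Phlda3 and -0.0637 to 0.03 for Sesn1. With quantile normalization Phlda3 was 0.0082 and Sesn1 0.0088, and with array weights 0.0628 and 0.0549. The cause was not tested. Trp53inp1, Ccng1 and Plk3 kept their direction and their call under every alternative that gave them a value, at 0.88 to 1.12, 0.65 to 0.74 and -0.76 to -0.61. Scaling by array medians, the robust prior, the median of a gene's rows and rows with several symbols changed no call of a p53-responsive gene.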
